A study of Mus musculus with 35 samples.

Results

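Mitochondrial ribosomal protein genes were followed in RNA from brown adipose tissue, the heat-producing fat depot, of Suv420h double knockout (dKO) and control mice. The members are all gene entries of the count tables whose name is Mrpl or Mrps followed by a digit. This rule found 76 of 10731 genes in the experiment at 4 weeks of age and 79 of 13233 genes in the experiment at 21 weeks, with 76 genes in both. All of them passed the filter on low counts. They comprise 49 genes for proteins of the large subunit, 26 for proteins of the small subunit and 4 pseudogene entries. Mrps18b was not analysed here.

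The mitochondrial ribosome sits in the mitochondrial matrix and translates the few proteins that mitochondrial DNA encodes, all of them core subunits of the respiratory chain and ATP synthase. Its ribosomal RNAs are made inside the organelle, while its proteins are encoded in the nucleus, made in the cytosol and imported. Brown adipocytes are packed with mitochondria, and their uncoupling protein turns respiratory chain activity into heat. The Suv420h1 and Suv420h2 enzymes place methyl groups on lysine 20 of histone H4, a mark of compact chromatin in its trimethylated form.

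The first experiment held 6 dKO libraries, 5 labelled female and 1 labelled male, and 9 control libraries, 5 labelled female and 4 labelled male. These mice were 4 weeks old and ate normal diet. The second experiment, all in females at 21 weeks of age, had 5 libraries in each of 4 groups: dKO on high fat diet, dKO on normal diet, control on high fat diet and control on normal diet. The high fat diet held 45 kJ% fat and was given for 14 weeks. The labels give no Cre line or promoter for the knockout, and do not say whether replicates come from different animals. The p-values therefore reflect the spread among libraries, part of which may be technical.

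Total counts per library ranged from 3069035 to 8140213 at 4 weeks and from 2398807 to 7693388 at 21 weeks. Levels below are CPM, tag counts scaled to a common TMM-adjusted library size, and fold changes are log2 values with 1 SE from edgeR's quasi-likelihood test, with Benjamini-Hochberg adjustment over all genes tested. At 21 weeks Suv420h2 averaged 17.9 ± 4.7 CPM in dKO and 49.9 ± 19.8 CPM in control libraries on normal diet (SD, n = 5 each), a difference of -1.48 ± 0.337 (edgeR adjusted p = 0.0218). On high fat diet it averaged 10.4 ± 4.2 CPM in dKO and 17.7 ± 7.7 CPM in control libraries (SD, n = 5 each; -0.76, edgeR adjusted p = 0.913). Suv420h1 differed by -0.10 on normal diet and 0.30 on high fat diet (edgeR adjusted p = 0.838 and 0.999). Tags that lie outside the deleted exons do not check a deletion, and neither gene was analysed here at 4 weeks.

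Some libraries stood apart from their labels or groups. At 4 weeks the labelled-female dKO library 2 held 1.73 CPM of Xist, the RNA of the inactive X chromosome, where the other labelled-female libraries held 166.2 to 335.7 CPM. The labelled-male control library 6 held 237.9 CPM of it, where the other labelled-male libraries held 1.82 to 4.89 CPM. The columns 1 to 6 of that count table, which are the 5 labelled-male libraries and dKO library 2, also differed as a set from columns 7 to 15, with mitochondrial transcripts at 27.4 to 30.1% of counts against 14.1 to 20.4%. At 21 weeks the summed level of 14 skeletal muscle markers reached 163.2 CPM at most in dKO on high fat diet and 2320 CPM in dKO on normal diet. In control mice it reached 4757 CPM on high fat diet and 37390 CPM on normal diet. Brown adipocyte markers summed to between 9736 and 37850 CPM in every library of both experiments. In bulk tissue, fewer cells of a type and less RNA per cell cannot be told apart.

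The members were expressed at very unequal levels. Each transcript gives 1 tag in a 3′ tag library whatever its length, so CPM here are not divided by length. At 4 weeks the median member held 67.1 CPM, 24 members held at least 100 CPM and 7 held less than 20 CPM. Mrpl12, the stalk protein that recruits translation factors and also binds the mitochondrial RNA polymerase, had the highest mean at 620.8 CPM. It was followed by Mrpl37 at 259.2, Mrps6 at 203.1, Mrps23 at 194.3, Mrpl30 at 188.3 and Mrpl18 at 183.5 CPM. Mrpl37 and Mrps23 are proteins that the bacterial ribosome lacks, while Mrps6, Mrpl30 and Mrpl18 have bacterial counterparts. The lowest means were those of Mrpl23 at 2.09, Mrps11 at 10.02 and Mrpl22 at 10.08 CPM.

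At 21 weeks the order was similar at the top. Mrpl12 averaged 452.3 CPM, then came Mrpl18 at 240.7, Mrps6 at 237.5, Mrpl37 at 226.5, Mrpl17 at 197.9 and Mrpl30 at 168.2 CPM. The median member held 54.2 CPM, 14 members held at least 100 CPM and 14 held less than 20 CPM. The lowest were Mrpl23 at 3.30, Mrps36 at 3.99 and Mrps33 at 6.40 CPM. Mrps36 is also known as a subunit of the 2-oxoglutarate dehydrogenase complex. The 2 experiments were counted and scaled separately, so levels are set side by side here and not tested between them.

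Together the members held 0.474 to 0.737% of the counts of a library. Their summed level at 4 weeks was 6824 ± 417 CPM in dKO (SD, n = 6; 6299 to 7476) and 6221 ± 591 CPM in control libraries (SD, n = 9; 5437 to 7033). At 21 weeks it was 5774 ± 221 CPM in dKO on high fat diet (5577 to 6092), 4967 ± 112 CPM in dKO on normal diet (4843 to 5114), 6343 ± 884 CPM in control on high fat diet (5306 to 7625) and 5160 ± 586 CPM in control on normal diet (4285 to 5920; SD, n = 5 each). The sums of the 2 diets did not overlap in dKO mice, and they overlapped in control mice. The sums at 4 weeks were not adjusted for labelled sex or for the set of columns. The spread of a single member within a group, as the median coefficient of variation over members, was 16.4% in dKO on high fat diet, 15.8% in dKO on normal diet, 23.9% in control on high fat diet and 29.3% in control on normal diet.

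**Figure D1:**
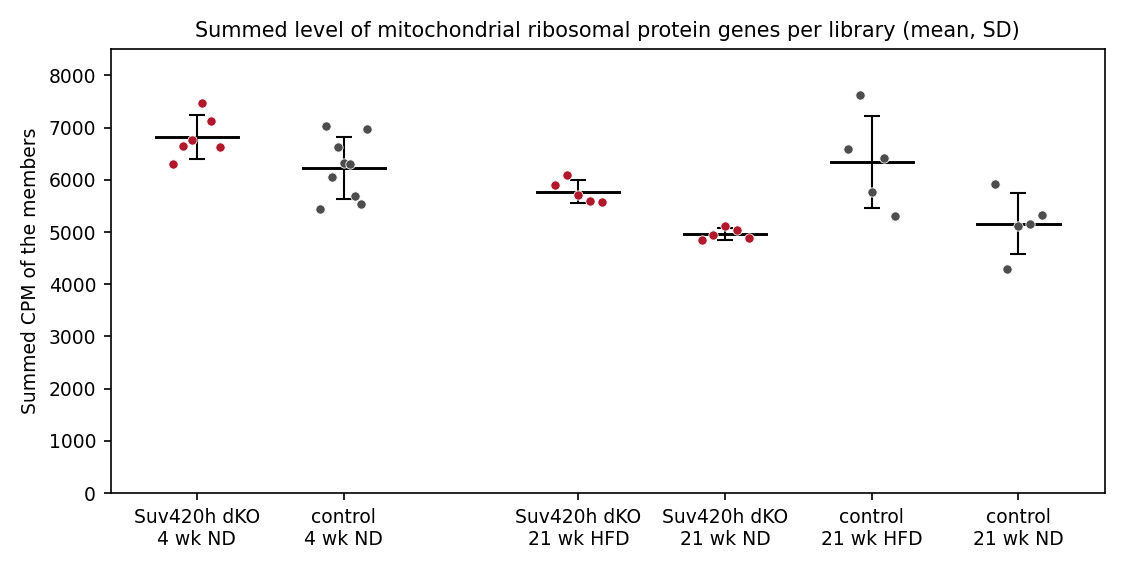
Summed level of all mitochondrial ribosomal protein genes (CPM, linear axis from 0) in each library, with the group mean and SD. At 21 weeks the 5 dKO libraries on high fat diet lie at 5577 to 6092 CPM, above the 5 dKO libraries on normal diet at 4843 to 5114 CPM, while the ranges of the control diets overlap.

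The comparison of dKO with control mice asks whether the loss of the Suv420h enzymes alters expression in this tissue. Among the members, Mrps12 was the 1 gene that edgeR called for genotype, on normal diet at 21 weeks and averaged over both diets. Mrps12 (ENSMUSG00000045948.8, GRCm38 chr7:28739641-28741820, minus strand) encodes the small-subunit protein at the decoding centre, where codon and anticodon are matched. At 4 weeks its level in dKO libraries ran from 30.0 through a median of 36.1 to 129.3 CPM, and in control libraries from 72.0 through a median of 111.8 to 144.4 CPM. The dKO libraries 1 to 4 lay between 30.0 and 37.9 CPM, below every control library, while dKO libraries 5 and 6, at 79.9 and 129.3 CPM, lay within the control range. Mrps12 averaged 57.0 ± 40.1 CPM in dKO (SD, n = 6) and 109.4 ± 20.1 CPM in control libraries (SD, n = 9). The difference was -1.08 ± 0.315 and missed the threshold of 0.05 (edgeR adjusted p = 0.121).

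On normal diet at 21 weeks Mrps12 held 47.6, 19.4, 21.6, 25.1 and 44.9 CPM in dKO libraries, against 94.96, 43.6, 76.6, 128.2 and 102.2 CPM in control libraries. The groups overlapped only through control library 2, at 43.6 CPM, which lay below dKO libraries 1 and 5. Mrps12 fell by 1.49 on the log2 scale in dKO mice (SE 0.363, edgeR adjusted p = 0.032). On high fat diet it held 26.5, 11.98, 64.3, 45.9 and 55.3 CPM in dKO libraries, against 68.0, 80.4, 68.1, 113.5 and 85.6 CPM in control libraries. These groups did not overlap, as for 0.927% of all genes with dKO below control, but the difference of -1.02 ± 0.356 did not pass the test (edgeR adjusted p = 0.637). The knockout effect on Mrps12 was not shown to differ between the diets (interaction 0.47 ± 0.502, edgeR adjusted p = 0.906). With diet Mrps12 itself differed by 0.37 in dKO and by -0.10 in control mice (edgeR adjusted p = 0.855 and 0.926). Averaged over both diets, a comparison added after the values were seen, Mrps12 fell by 1.26 on the log2 scale (SE 0.254, edgeR adjusted p = 0.00968).

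**Figure D2:**
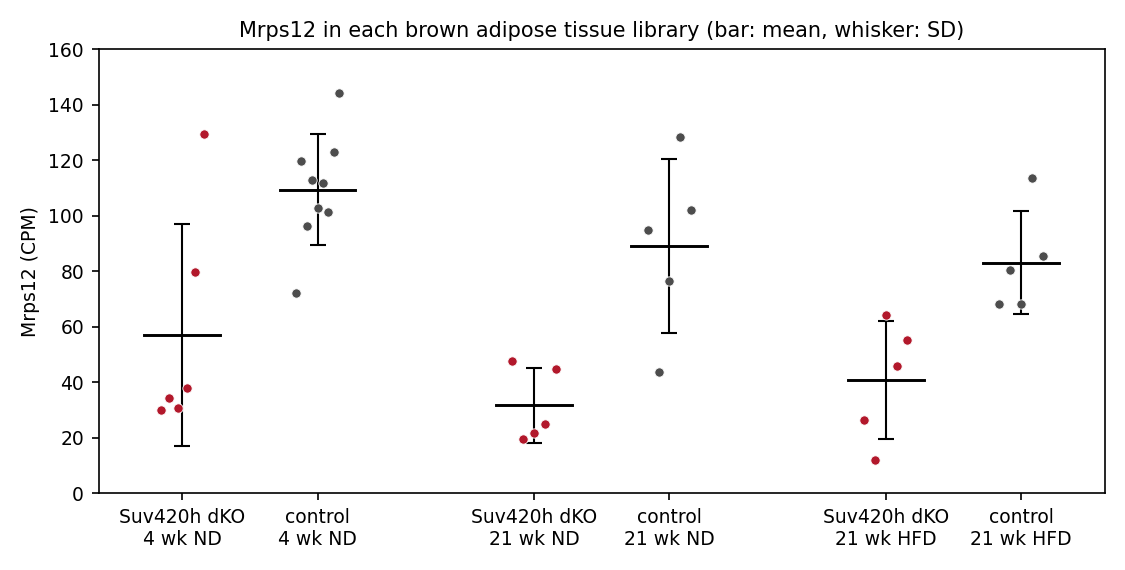
Mrps12 level (CPM, linear axis from 0) in each library of both experiments, dKO left of control in each pair, with the group mean and SD. At 4 weeks 4 of 6 dKO libraries lie below all 9 control libraries, and on high fat diet at 21 weeks all 5 dKO libraries lie below all 5 control libraries.

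The call for Mrps12 on normal diet depended on single libraries. Its adjusted p was 0.0801, 0.0776 and 0.0732 without dKO library 2, 3 or 4 on normal diet and 0.0766 without control library 4 on normal diet, all from edgeR, and it stayed below the threshold in the other 6 of 10 such fits. Of the muscle markers, 14 of 14 had a negative fold change in dKO on normal diet, 12 of them at an unadjusted p below 0.05. With a muscle score as covariate Mrps12 differed by -1.73 (edgeR adjusted p = 0.0533), and without the 4 libraries with over 1000 CPM of Acta1, the skeletal muscle actin, by -1.66 (edgeR adjusted p = 0.0852). Averaged over both diets, the call held without each library in turn (highest edgeR adjusted p = 0.0213), with the muscle score (0.0144) and without those 4 libraries (0.0198). Leaving out each of the 15 libraries at 4 weeks in turn gave a call only without dKO library 6 (-1.45, edgeR adjusted p = 0.00499). The highest adjusted p of these edgeR fits was 0.265. Library 6 held the most Mrps12 of the dKO libraries, so the fit without it is no support. Without the 2 libraries whose Xist level went against the label the difference was -0.96 (edgeR adjusted p = 0.167). Within columns 1 to 6, which hold dKO libraries 1 and 2 and control libraries 1, 4, 5 and 6, it was -1.64 (edgeR adjusted p = 0.0321). These columns include the 2 libraries whose Xist level went against the label. Within columns 7 to 15 the difference was -0.75 (edgeR adjusted p = 0.399).

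The gene next to Mrps12 was not called for genotype in any of these comparisons. Mrps12 is read from the opposite strand to Sars2, the mitochondrial seryl-tRNA synthetase, and their RefSeq starts lie 147 bases apart. Sars2 differed by 0.06 in dKO at 4 weeks, -0.21 on normal diet and -0.18 on high fat diet (edgeR adjusted p = 0.930, 0.803 and 0.999). Mrps12 lies 24 Mb from Suv420h2 on the same chromosome. The window from 250 bases before to 50 bases after its start is shown because it holds the start of both genes, and capitals mark the matches to the searched motifs.
Mrps12, RefSeq, GRCm38.p6, chr7:28741772-28742071, minus strand: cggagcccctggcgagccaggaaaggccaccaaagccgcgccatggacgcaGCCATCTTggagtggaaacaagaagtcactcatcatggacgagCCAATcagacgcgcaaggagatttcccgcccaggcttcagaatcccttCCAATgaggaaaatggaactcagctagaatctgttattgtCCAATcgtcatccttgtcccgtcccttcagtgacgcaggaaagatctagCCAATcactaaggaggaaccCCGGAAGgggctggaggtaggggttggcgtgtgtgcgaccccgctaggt

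The capitals in this window are, in order, 1 YY1 match on the other strand, 4 CCAAT boxes and 1 GABPA match. The motifs searched on both strands were CCGGAAG (GABPA, an ETS factor), GCGCATGC (NRF1), AAGATGGC (YY1) and CCAAT (the CCAAT box). The factors GABPA, NRF1 and YY1 are known to drive many nuclear genes for mitochondrial proteins. Among the 66 members with a RefSeq window, 22 (33.3%) held the GABPA letters, against 9.12% of 27025 genes. The YY1 letters stood in 12 member windows (18.2%, against 2.88% of all genes) and the NRF1 letters in 7 (10.6%, against 2.80%). The CCAAT box stood in 26 (39.4%, against 37.9%). The median GC content was 58.2% in member windows and 52.7% over all genes, and the motif counts were not adjusted for it. A match is a description of letters and not of a bound site.

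No member passed edgeR's test for genotype at 4 weeks. Of 76 members 0 were called, where 0.830% of all genes were called, and 10 (13.2%, against 15.9% of all genes) had an unadjusted p below 0.05, 8 of them with a positive fold change. DESeq2 called 4 (Mrpl36, Mrpl54, Mrps12 and Mrps36-ps2), where it called 3.04% of all genes in the fit. In all, 52 of 76 members (68.4%) had a positive fold change, against 49.1% of all genes, with a median of 0.08 for members and -0.01 for all genes. The large subunit had 37 of 48 positive values and a median of 0.10, and the small subunit 13 of 26 and a median of -0.01. Mean sums were 4692 ± 410 CPM in dKO and 4169 ± 458 CPM in control libraries for the large subunit, and 2088 ± 84.6 CPM in dKO and 2000 ± 171 CPM in control libraries for the small subunit (SD, n = 6 and 9). These sums were not adjusted for labelled sex or for the set of columns, which the genotypes share unequally. Mrpl12 alone held 270.1 to 449.1 CPM in columns 1 to 6 and 556.9 to 980.1 CPM in columns 7 to 15.

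Beside Mrps12, the smallest p-values at 4 weeks belonged to large-subunit genes. Mrpl54, which the bacterial ribosome lacks, ranged from 38.0 through a median of 45.9 to 52.6 CPM in dKO and from 31.4 through 35.4 to 44.2 CPM in control libraries (0.37 ± 0.111, edgeR adjusted p = 0.118). Mrpl55, also without a bacterial counterpart, ranged from 78.5 through 95.01 to 104.8 CPM in dKO and from 53.2 through 68.5 to 84.3 CPM in control libraries (0.44 ± 0.136, edgeR adjusted p = 0.132). Mrpl36, a short protein with a bacterial counterpart, ranged from 49.8 through 54.4 to 56.1 CPM in dKO and from 31.9 through 42.6 to 52.7 CPM in control libraries (0.37 ± 0.116, edgeR adjusted p = 0.136). For all 3 genes the ranges of the genotypes overlapped. Mrpl12 averaged 731.1 ± 234.7 CPM in dKO (SD, n = 6) and 547.3 ± 222.9 CPM in control libraries (SD, n = 9), and differed by 0.21 ± 0.175 (edgeR adjusted p = 0.589). Of the paralogues of the bacterial S18 protein, Mrps18a, which sits in the large subunit, differed by 0.08 and Mrps18c by -0.21 ± 0.123 (edgeR adjusted p = 0.858 and 0.421). The authors' deposited table for this experiment called 2 of the 76 members, against 4.30% of its genes: Mrpl55 at a log2 fold change of 0.48 (adjusted p = 0.0189) and Mrps12 at -1.32 (adjusted p = 0.0239).

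On normal diet at 21 weeks Mrps12 was the 1 member called of 79, where 2.65% of all genes were called. DESeq2 called 2 (Mrps12 and Mrps23), where it called 7.32% of all genes. In this comparison 39 of 79 members had a positive fold change, and the median was -0.01 for members and 0.02 for all genes. Mrps23, a small-subunit protein that bacteria lack, held 116.8, 108.2, 117.8, 111.6 and 118.2 CPM in dKO libraries, against 189.6, 145.5, 126.8, 238.8 and 152.9 CPM in control libraries. The groups did not overlap, as for 1.80% of all genes with dKO below control, but the difference of -0.57 ± 0.180 missed the threshold (edgeR adjusted p = 0.0773). Mrpl37 differed by -0.49 ± 0.180 and Mrps35, another small-subunit protein without bacterial counterpart, by 0.53 ± 0.194 (edgeR adjusted p = 0.121 and 0.125). Mrpl12 differed by -0.04, Mrps18a by -0.64 and Mrps18c by 0.51 (edgeR adjusted p = 0.911, 0.168 and 0.492).

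On high fat diet no member passed the test, and most had a negative fold change. Of 79 members 0 were called by edgeR or by DESeq2, where edgeR called 0.116% and DESeq2 0.596% of all genes, and 3 (3.8%, against 5.07% of all genes) had an unadjusted p below 0.05, all negative. A positive fold change was seen in 12 of 79 members (15.2%), against 48.3% of all genes, and the median was -0.14 for members and -0.01 for all genes. Single libraries moved these values: without control library 2 on high fat diet 31 of 79 members (39.2%) were positive with a median of -0.04, without control library 1 the count was 21 with a median of -0.11, and without control library 5 it was 7 with a median of -0.21. The large subunit had 41 of 49 negative values and the small subunit 22 of 26. The members with the smallest p after Mrps12 were Mrpl48 (-0.53 ± 0.205), Mrps15 (-0.50 ± 0.219) and Mrpl51 (-0.37 ± 0.179), with edgeR adjusted p of 0.753, 0.877 and 0.978. Mrpl12 and Mrps18a both differed by 0.07 and Mrps18c by -0.30, each at an edgeR adjusted p of 0.999. Control library 3 on high fat diet held 1219 CPM of Acta1, and 13 of 14 muscle markers had a negative fold change in dKO on this diet. With the muscle score 11 of 79 members were positive with a median of -0.17, and without the 4 libraries with over 1000 CPM of Acta1 15 of 79, also with a median of -0.17. Averaged over both diets, Mrps12 was the 1 member called, where 3.0% of all genes were called, and 11 members (13.9%, against 18.8% of all genes) had an unadjusted p below 0.05, all negative. DESeq2 called 3 (Mrpl37, Mrps12 and Mrps15), where it called 6.6% of all genes. The 11 included Mrps15 (-0.52 ± 0.155), which has a bacterial counterpart in the small subunit, Mrpl37 (-0.39 ± 0.127) and Mrps23 (-0.37 ± 0.127), with edgeR adjusted p of 0.0637, 0.092 and 0.108.

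The diet comparison asks how the tissue differs after 14 weeks of high fat diet. Averaged over both genotypes, 5 of 79 members rose on high fat diet and 0 fell, where 1.93% of all genes rose and 1.71% fell, 3.63% in all. This average was added after the values were seen. The 5 were Mrpl54, Mrpl10, Mrpl12, Mrps2 and Mrpl33, 4 of the large subunit and 1 of the small. DESeq2 called 10, these 5 and Mrpl11, Mrpl21, Mrpl36, Mrpl39 and Mrps5, where it called 6.96% of all genes. With edgeR 26 members (32.9%, against 17.8% of all genes) had an unadjusted p below 0.05, all positive, and 67 of 79 members had a positive fold change. The median was 0.27 for members and -0.01 for all genes.

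Mrpl54 (GRCm38 chr10:81264713-81266934, minus strand) held 56.6, 46.3, 50.7, 50.9 and 55.8 CPM in dKO on high fat diet, against 34.1, 24.4, 38.8, 28.0 and 31.3 CPM in dKO on normal diet. In control mice it held 49.3, 79.5, 56.1, 64.8 and 44.3 CPM on high fat diet, against 44.6, 29.6, 36.7, 39.1 and 27.3 CPM on normal diet. The diets did not overlap in dKO mice and overlapped by less than 1 CPM in control mice. Mrpl54 rose by 0.73 ± 0.135 over both genotypes (edgeR adjusted p = 0.00319).

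Mrpl10 (GRCm38 chr11:97041560-97049213, plus strand) anchors the stalk to the body of the large subunit. It held 141.6, 192.1, 169.3, 186.6 and 177.3 CPM in dKO on high fat diet, against 103.9, 136.0, 95.8, 114.2 and 118.8 CPM in dKO on normal diet. Control mice had 145.0, 170.0, 137.1, 127.3 and 131.4 CPM on high fat diet, against 130.7, 98.95, 100.9, 95.3 and 89.6 CPM on normal diet. The diets overlapped in control mice through library 1 on normal diet. Mrpl10 rose by 0.54 ± 0.109 (edgeR adjusted p = 0.00646).

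Mrpl12 (GRCm38 chr11:120484613-120489065, plus strand), whose copies form the stalk on Mrpl10, was the most abundant of the 5. It held 528.7, 646.7, 543.0, 517.5 and 467.5 CPM in dKO on high fat diet, against 398.9, 344.7, 385.8, 405.8 and 323.7 CPM in dKO on normal diet. Control mice had 551.9, 602.5, 486.1, 534.1 and 398.4 CPM on high fat diet, against 486.9, 295.9, 354.9, 389.0 and 384.2 CPM on normal diet. All 5 dKO libraries on high fat diet lay above all 5 on normal diet. Mrpl12 rose by 0.48 ± 0.112 (edgeR adjusted p = 0.0149).

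Mrps2 (GRCm38 chr2:28468066-28471178, plus strand) is a small-subunit protein with a bacterial counterpart. It held 122.0, 156.7, 125.0, 127.1 and 141.8 CPM in dKO on high fat diet, against 83.6, 85.1, 95.6, 94.9 and 108.7 CPM in dKO on normal diet. Control mice had 157.5, 151.9, 138.4, 138.3 and 134.7 CPM on high fat diet, against 137.5, 60.6, 110.4, 116.0 and 120.6 CPM on normal diet. The control diets overlapped through library 1 on normal diet. Mrps2 rose by 0.46 ± 0.123 (edgeR adjusted p = 0.0344).

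Mrpl33 (GRCm38 chr5:31596935-31664384, plus strand) encodes a small large-subunit protein with a bacterial counterpart. It held 204.8, 162.5, 131.4, 159.4 and 167.7 CPM in dKO on high fat diet, against 129.5, 104.0, 121.2, 112.2 and 92.0 CPM in dKO on normal diet. In control mice it held 228.3, 270.3, 124.3, 123.0 and 119.8 CPM on high fat diet, against 148.2, 112.0, 106.8, 63.4 and 133.4 CPM on normal diet. Control libraries 1 and 2 on high fat diet lay far above the other 3, which overlapped those on normal diet. Mrpl33 rose by 0.59 ± 0.165 (edgeR adjusted p = 0.0439).

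**Figure D3:**
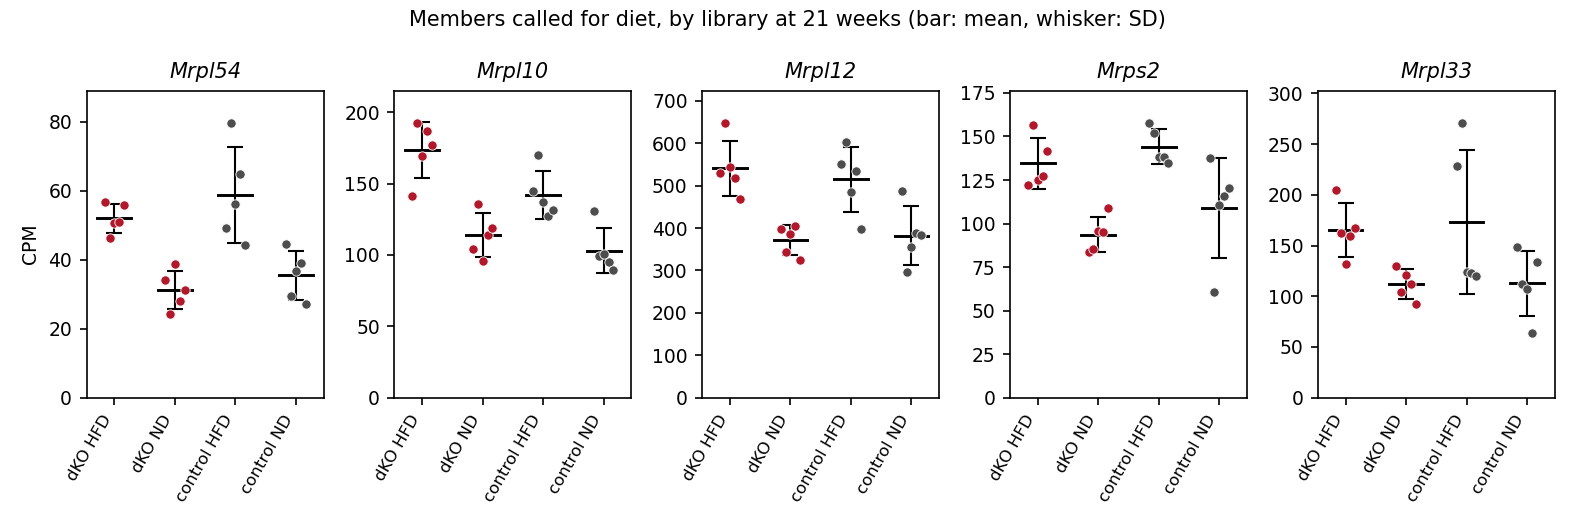
Levels (CPM, linear axes from 0) of the 5 members called for diet, Mrpl54, Mrpl10, Mrpl12, Mrps2 and Mrpl33, 1 panel each, per library in dKO on high fat diet, dKO on normal diet, control on high fat diet and control on normal diet, with mean and SD. In dKO mice the 2 diets do not overlap in any of the 5 panels, and in control mice they overlap in all 5.

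The last 500 bases of Mrpl10, Mrpl12 and Mrpl33 overlap a gene on the opposite strand (Gm11574, Gm16755 and Rbks), and those of Mrpl33 also Gm43809 on the same strand. These overlaps are between annotated gene spans, introns included. No source used here gives the strand setting of the counting, so whether reads of such pairs were mixed is not known. The windows of Mrpl10 and Mrpl33 are shown because both hold at least 1 of the 4 motifs, with matches in capitals. Mrpl54 was not searched.
Mrpl10, RefSeq, GRCm38.p6, chr11:97041332-97041631, plus strand: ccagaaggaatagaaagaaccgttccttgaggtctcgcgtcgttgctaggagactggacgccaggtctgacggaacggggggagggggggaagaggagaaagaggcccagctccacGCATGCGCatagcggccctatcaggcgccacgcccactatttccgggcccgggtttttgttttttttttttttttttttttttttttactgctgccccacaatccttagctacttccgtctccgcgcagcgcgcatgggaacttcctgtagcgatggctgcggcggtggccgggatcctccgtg
Mrpl33, RefSeq, GRCm38.p6, chr5:31613701-31614000, plus strand: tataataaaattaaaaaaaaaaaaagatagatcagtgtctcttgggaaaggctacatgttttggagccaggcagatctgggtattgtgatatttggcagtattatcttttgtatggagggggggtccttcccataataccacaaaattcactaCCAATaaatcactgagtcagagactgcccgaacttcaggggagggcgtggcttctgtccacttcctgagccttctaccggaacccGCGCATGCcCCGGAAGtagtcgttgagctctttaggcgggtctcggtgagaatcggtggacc

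Mrpl10 has 1 NRF1 match on the other strand. Mrpl33 has 1 CCAAT box and, next to each other without overlap, 1 NRF1 and 1 GABPA match. The windows of Mrpl12 and Mrps2 hold none of the 4 sets of letters.

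Muscle and brown adipocyte markers differed in the same diet comparisons. On high fat diet 14 of 14 muscle markers had a negative fold change in control mice and 13 of 14 in dKO mice, and 3 were called lower averaged over both. Of the 10 brown adipocyte markers, 8 had a positive and 2 a negative fold change averaged over both. The 2 called were Ucp1 (0.81, edgeR adjusted p = 0.00319) and Elovl3 (0.93, edgeR adjusted p = 0.00197), both higher on high fat diet. The 4 libraries with over 1000 CPM of Acta1 are control libraries 2, 3 and 4 on normal diet and 3 on high fat diet. Without them 2 of 79 members, Mrpl54 and Mrpl10, were called (edgeR adjusted p = 0.012 and 0.0322). Over all genes 476 were called in that fit, more than the 439 with all libraries. With the muscle score as covariate 0 members were called by edgeR, 7 had an unadjusted p below 0.05, and the members' median was 0.14. Over all genes 6 were called with the score, against 439 without it. The fold changes with the score were 0.64 for Mrpl54, 0.41 for Mrpl10, 0.40 for Mrpl12, 0.26 for Mrps2 and 0.33 for Mrpl33 (edgeR adjusted p = 0.325 to 0.868). Mrpl54, Mrpl10 and Mrpl12 were called without each of the 20 libraries in turn, Mrps2 in 11 and Mrpl33 in 7 of these fits.

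Taken within each genotype, no member passed the test for diet. In dKO mice 0 of 79 were called by edgeR, where 0.372% of all genes were called, and 10 (12.7%, against 9.21% of all genes) had an unadjusted p below 0.05, all positive. DESeq2 called 3 (Mrpl10, Mrpl12 and Mrpl54), where it called 1.37% of all genes. The smallest edgeR p-values were those of Mrpl10 (0.61 ± 0.155, adjusted p = 0.0871), Mrpl54 (0.73 ± 0.191, adjusted p = 0.101), Mrpl12 (0.54 ± 0.159, adjusted p = 0.179) and Mrps2 (0.52 ± 0.175, adjusted p = 0.268). All dKO libraries on high fat diet lay above all on normal diet for 8 of 79 members (10.1%), against 2.47% of all genes. In control mice 0 of 79 were called by edgeR, where 0.795% of all genes were called, and 27 (34.2%, against 16.2% of all genes) had an unadjusted p below 0.05, 26 of them positive. DESeq2 called 3 (Mrpl39, Mrpl51 and Mrpl54), or 3.8%, where it called 4.15% of all genes. The smallest edgeR p-values were those of Mrpl54 (0.73 ± 0.191, adjusted p = 0.062), Mrpl39 (1.47 ± 0.412, adjusted p = 0.0808), Mrpl51 (0.62 ± 0.180, adjusted p = 0.0831) and Mrpl9 (0.73 ± 0.229, adjusted p = 0.104). Mrpl39 and Mrpl51 are large-subunit proteins that bacteria lack, and Mrpl9 has a bacterial counterpart. Levels of all control libraries on high fat diet lay above those on normal diet for 3 members (Mrpl2, Mrpl9 and Mrpl11; 3.8%), against 1.52% of all genes. Mrps18a differed with diet by 0.65 ± 0.261 in dKO and -0.07 ± 0.260 in control mice (edgeR adjusted p = 0.401 and 0.929), and Mrps18c by 0.24 ± 0.399 in dKO and 1.04 ± 0.404 in control mice (edgeR adjusted p = 0.936 and 0.192).

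The 2 diet comparisons use different libraries. A positive fold change was seen in both genotypes for 46 of 79 members (58.2%), against 28.4% of all genes, and a negative one in both for 5. In dKO mice 58 of 79 members were positive, with a median of 0.16 against -0.03 for all genes. In control mice 62 of 79 were positive, with a median of 0.38 against 0.00 for all genes. Mean sums of the large subunit were 4050 ± 209 CPM in dKO on high fat diet, 3462 ± 77.8 CPM in dKO on normal diet, 4431 ± 663 CPM in control on high fat diet and 3511 ± 417 CPM in control on normal diet. Those of the small subunit were 1607 ± 30.8, 1400 ± 54.0, 1768 ± 194 and 1530 ± 163 CPM in the same order of groups (SD, n = 5 each). Mrps28, named after its values were seen because it lies farthest out, ranged from 2.1 to 71.5 CPM in dKO on high fat diet and from 8.2 to 28.6 CPM in dKO on normal diet. In control mice it ranged from 3.3 to 77.7 CPM on high fat diet and from 0.45 to 15.2 CPM on normal diet (2.38 ± 0.956, edgeR adjusted p = 0.226).

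**Figure D4:**
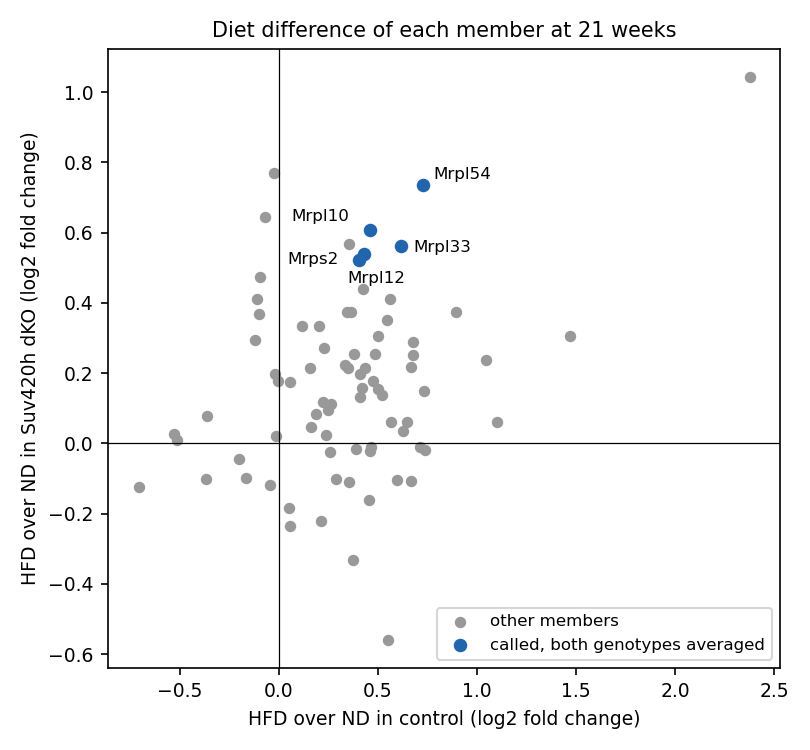
Log2 fold change of high fat over normal diet for each of the 79 members, in control mice on the horizontal and in dKO mice on the vertical axis, with the 5 members called over both genotypes labelled. The upper right part of the plot, positive in both, holds 46 members, and the point farthest right, at 2.38 and 1.04, is Mrps28.

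The diet effect was not shown to differ between the genotypes for any member. The interaction had 0 calls among the members by edgeR and by DESeq2, where edgeR called 0% and DESeq2 0.0993% of all genes, and 2 members had an unadjusted p below 0.05. They were Mrpl51 (-0.59 ± 0.253) and Mrps34, a small-subunit protein that bacteria lack (0.52 ± 0.236), and the smallest edgeR adjusted p among the members was 0.767. Mrpl39 (-1.16 ± 0.571) and Mrpl42 (-0.72 ± 0.369), both large-subunit proteins without bacterial counterpart, followed at an edgeR adjusted p of 0.784 each. The members' median was -0.16, against -0.04 for all genes, and without the 4 libraries with over 1000 CPM of Acta1 it was -0.03, against -0.06 for all genes.

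Other genes of the mitochondrial ribosome and its pathway were described from lists. Of the 7 ribosome proteins that carry other names, 7 had a positive fold change for diet in dKO and 7 in control mice. Over all genes 47.2% were positive in dKO and 49.7% in control mice. Ptcd3, the small-subunit protein of the pentatricopeptide family, rose in control mice on high fat diet (1.18, edgeR adjusted p = 0.0193). It was the 1 called of 7 (14.3%), against 0.795% of all genes. Of 14 translation factors Mtrf1l, a release factor, rose in control mice on high fat diet (1.38, edgeR adjusted p = 0.0391) and in dKO mice on normal diet relative to control (1.48, edgeR adjusted p = 0.0161). Each call is 1 of 14 (7.14%), against 0.795% of all genes in the first comparison and 2.65% in the second. These 2 comparisons share the control libraries on normal diet. Averaged over the genotypes, Mtif2, the initiation factor (0.50, edgeR adjusted p = 0.0217), Fastkd2, which takes part in assembly of the large subunit (0.67, edgeR adjusted p = 0.0329), and Ptcd3 (0.75, edgeR adjusted p = 0.0117) rose on high fat diet. They are 1 of 14 translation factors (7.14%), 1 of 26 assembly factors (3.85%) and 1 of 7 ribosome proteins with other names (14.3%), where 3.63% of all genes were called.

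At 21 weeks aminoacyl-tRNA synthetases, which charge the mitochondrial tRNAs, gave calls in both directions. Cars2 fell in dKO mice on normal diet (-1.12, edgeR adjusted p = 0.0248), 1 of 17 or 5.88% against 2.65% of all genes. On high fat diet averaged over the genotypes Fars2 rose (0.49, edgeR adjusted p = 0.0357) and Lars2 fell (-1.30, edgeR adjusted p = 0.0482), 2 of 17 or 11.8% against 3.63% of all genes. Of the 8 mitochondrially encoded mRNAs tested, the products of which these ribosomes make, mt-Nd4 (0.55), mt-Nd1 (0.54) and mt-Nd5 (0.49) rose on high fat diet averaged over the genotypes, with edgeR adjusted p of 0.0238, 0.0288 and 0.0411. These 3 are 37.5% of the list, against the same 3.63%. Of the 26 assembly factors tested at 21 weeks, 0 were called by edgeR for diet within either genotype, with 3 in each at an unadjusted p below 0.05, all positive.

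Labelled sex could be compared at 4 weeks only, and there it nearly coincided with the set of columns. Of 76 members 27 were called between labelled females and males, 10 higher and 17 lower in females, or 35.5%, where 35.2% of all genes were called (17.8% higher, 17.4% lower). The members higher in labelled females with the smallest p were Mrps24 (1.18 ± 0.181), a small-subunit protein, Mrps18a (1.16), Mrpl12 (0.95), Mrpl48 (0.72), Mrpl21 (0.80), Mrpl28 (0.56), Mrpl1 (0.45) and Mrpl10 (0.49). Those lower in labelled females were Mrpl22 (-2.33 ± 0.351), Mrps10 (-1.75), Mrps36-ps2 (-2.83), Mrps14 (-0.80), Mrpl18 (-0.73), Mrps33 (-2.13), Mrpl23-ps1 (-2.87) and Mrps21 (-2.27). With the set of columns beside sex in the model 0 members, and 0 genes in all, were called for sex by edgeR. Labelled sex parts from column set only at dKO library 2, and sex by Xist level only at control library 6. Both lie in columns 1 to 6, and each held mitochondrial transcripts at 28.3% of counts, within the range of that set. Beyond the fit above, sex and column set were not tested apart.

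By column set, 15 of 76 members (19.7%) did not overlap, against 16.2% of all genes. Of these, 7 were higher in columns 1 to 6 than in columns 7 to 15. Mrps36 held 158.3 to 214.3 CPM in columns 1 to 6 and 2.74 to 9.59 CPM in columns 7 to 15. Mrps21 held 82.6 to 102.8 CPM in columns 1 to 6 and 11.7 to 26.1 CPM in columns 7 to 15. Mrps33 held 61.3 to 79.6 CPM in columns 1 to 6 and 10.03 to 15.9 CPM in columns 7 to 15. At 21 weeks no library exceeded 11.62 CPM for Mrps36 or 11.81 CPM for Mrps33, near the values of columns 7 to 15. The other 8 were lower in columns 1 to 6, among them Mrpl12 at 270.1 to 449.1 CPM against 556.9 to 980.1 CPM in columns 7 to 15. Mrps21, Mrpl22 and Mrps36-ps2 are among 8 members with a pseudogene of at least 95% identity over at least 100 of their last 300 bases, so counting could split their reads. Mrps36, Mrps33 and Mrps10, also higher in columns 1 to 6, have 0 such pseudogenes, and so do the members that were lower there. Mrpl23-ps1 was compared with pseudogenes only and not with its parent gene Mrpl23, which has 1. Only the last 300 bases were searched, so 0 matches do not show that reads were unshared. The cause of the gaps was not tested.

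**Figure D5:**
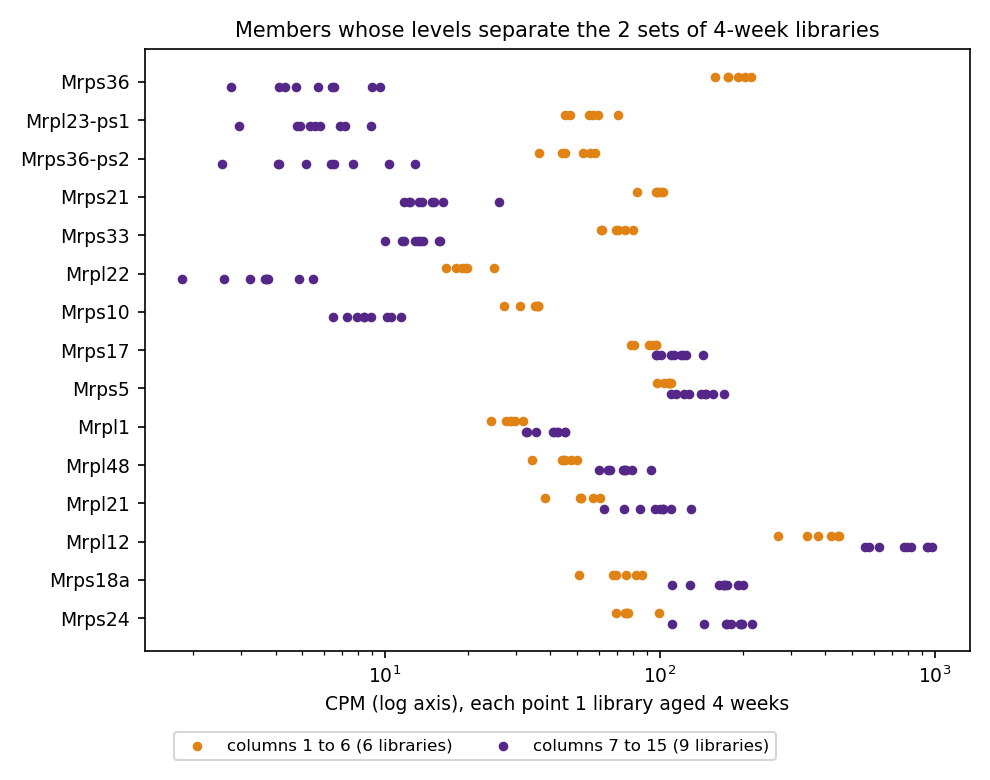
Levels (CPM, log axis) at 4 weeks of the 15 members that do not overlap between columns 1 to 6 and columns 7 to 15 of the count table, 1 point per library. Mrps36 shows the widest gap, at 158.3 to 214.3 CPM against 2.74 to 9.59 CPM, and 8 members, among them Mrpl12, lie lower in columns 1 to 6.

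The members are spread over 17 chromosomes. The nearest to a targeted gene is Mrpl21, at 0.475 Mb from Suv420h1, followed by Mrpl11 at 1.14 Mb and Mrpl49 at 2.24 Mb, and none of these 3 was called for genotype in either experiment. Mrpl44 starts at 79776018 on GRCm38 chromosome 1 and overlaps the end of the annotated span of Wdfy1, at 79776143, head to head. Mrpl44 differed in dKO mice by -0.05 at 4 weeks, 0.56 on normal diet and -0.03 on high fat diet, none of them called.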

How the data were processed

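RNA of 35 libraries was sequenced with a QuantSeq 3′ mRNA kit by oligo-dT priming, per the labels' protocols. Per the submitters' processing notes, STAR 2.5.3a, featureCounts and limma were used with mm10 and GRCm38. No source used here gives the annotation, the strand setting or the filters. For each experiment the authors deposited a table of raw counts, and a table of log2 fold changes, p-values and adjusted p-values of dKO over control. In the counts of the experiment at 21 weeks, 18 rows whose gene names had become dates held 0.09% of counts and were left out. Each count column was matched to its sample by the number in the labels, with 0 left unmatched.

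Genes were filtered with filterByExpr of edgeR 4.0.16 (minimum count 10), leaving 10366 of 10731 and 12082 of 13233 genes. Counts were scaled by TMM and tested with edgeR's quasi-likelihood test (robust) in R 4.3.3, with Benjamini-Hochberg adjustment over all genes and calls at an adjusted p below 0.05. Genotype and labelled sex formed 1 additive model at 4 weeks, and 4 groups formed 1 model at 21 weeks. DESeq2 1.42.0 was run for alternatives. The muscle score of a library was the mean log2 CPM of the muscle markers, entered as a covariate in edgeR. The procedure was tested on simulated data. A simulated 2-fold change was called for 81% of changed genes for genotype at 4 weeks. At 21 weeks it was called for 18 to 21% in the comparisons of 2 groups. It was called for 51 and 52% for averaged genotype and diet, and for 1% for the interaction. Most smaller differences would thus be missed at 21 weeks. Total counts per library set the precision of low genes.

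The members and lists were chosen with earlier results of these data known. Named are the 6 highest and 3 lowest members by mean CPM per experiment. In each comparison up to 8 called members per direction by smallest adjusted p are named, or the 4 members with the smallest p where fewer than 4 were called. Mrpl12, Mrps12, Mrps18a and Mrps18c are named throughout. Not every called gene of the pathway lists is reported here, and none is for labelled sex. Subunits and bacterial counterparts were assigned by gene number, with Mrps30 and Mrps18a placed in the large subunit. Promoter windows were read from RefSeq (GRCm38.p6), with 66 of 79 members matched. Alternatives comprised DESeq2, its size factors, no low-count filter, leaving out each library, a replicate block, column sets, a muscle score and leaving out doubted libraries.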

Additional observations from a re-analysis of the deposited data

Results flagged for a closer look

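In groups of 5, 6 or 9 libraries, 154 sets of values were examined for a highest or lowest library that lay far from the rest. The sets were levels of named members and the summed level of all members, and 17 were marked. Chance marks about 1 in 20 sets. The cause of none of them was tested.

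At 4 weeks, in control libraries, Mrpl30 was highest in library 9 at 247.6 CPM (next 178.2), Mrpl37 lowest in library 1 at 150.5 CPM (next 238.7), Mrpl42 highest in library 2 at 171.4 CPM (next 137.6) and Mrps18c highest in library 1 at 43.81 CPM (next 33.48).

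At 21 weeks, dKO library 2 on high fat diet was marked for 5 members. It was highest for Mrpl17 at 246.6 CPM (next 198.6), Mrpl37 at 310.5 CPM (next 212.2) and Mrps18a at 107.8 CPM (next 61.67), and lowest for Mrpl39 at 21.98 CPM (next 42.64) and Mrps36 at 2.681 CPM (next 4.631). In dKO on normal diet, Mrpl36 was highest in library 2 at 61.3 CPM (next 45.71) and Mrps6 in library 4 at 258.1 CPM (next 198.9).

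In control on high fat diet, Mrps23 was highest in library 4 at 203.6 CPM (next 156.2) and Mrps34 lowest in library 1 at 62.61 CPM (next 76.86). In control on normal diet, library 1 was highest for Mrpl10 at 130.7 CPM (next 100.9) and Mrps34 at 110.3 CPM (next 78.41), and library 4 for Mrpl30 at 293.2 CPM (next 165.4) and Mrps18a at 109.7 CPM (next 64.51). Library 4 is 1 of the 4 libraries with over 1000 CPM of Acta1.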

How the results depend on the processing

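For 77 pairs of a named member and a comparison there were 1669 alternative fold changes. Of these 1546 kept their direction and their side of the threshold, 28 gained a call, 64 lost it and 31 changed sign. Most of the 77 pairs were not called in the main fit, and a pair that stayed uncalled counts as kept. The 64 losses come only from pairs with a call. Counts and medians over the members are not among these values. DESeq2 called 4 members for genotype at 4 weeks (3.04% of all genes), 2 for genotype on normal diet (7.32%), 3 for diet in dKO (1.37%), 3 for diet in control (4.15%), 3 for averaged genotype (6.6%) and 10 for averaged diet (6.96%). With the 2 dKO groups alone 1 member was called for diet, where 142 genes were called in all. At 4 weeks the deviations of same-numbered libraries from their group means correlated at 0.584 for pair 1 and 0.349 for pair 3. The other pairs at 4 weeks lay between -0.567 and -0.366, and the pairs at 21 weeks between -0.453 and 0.267. With a replicate block 5 members were called for sex (391 genes in all) and 3 for averaged diet (265 genes in all). With this block Mrpl12 differed by -0.0221 for genotype at 4 weeks and Mrps12 by 0.00285 for diet in control. For genotype at 4 weeks 1 member, Mrps12, was called within columns 1 to 6 (9 genes in all), where the only dKO libraries are 1 and 2. Without dKO libraries 5 and 6 the 1 member called was also Mrps12 (93 genes in all). Those libraries were left out because their Mrps12 lay within the control range, so this value is no support. With the column set beside sex, 0 members and 0 genes in all were called for sex, with a member median of 0.024. In that fit Mrpl21 was at -0.0419, Mrpl10 -0.154, Mrps10 0.0396, Mrps33 0.143, Mrpl23-ps1 0.0276, Mrps21 0.341 and Mrps12 -0.446. With the muscle score 0 members were called for genotype on normal diet (63 genes in all) and 0 for averaged diet (6 genes in all). The median for diet in control was then 0.194, Mrpl12 was at -0.0268 for averaged genotype and Mrps12 at -0.162 for averaged diet. Without the 4 libraries high in Acta1, 0 members were called for genotype on normal diet (73 genes in all) and 2 for diet in dKO (168 genes in all). For averaged genotype 3 were called (328 genes in all) and for averaged diet 2 (476 genes in all). Mrps18a was then at 0.105 for diet in control and -0.0186 for genotype on high fat diet, and Mrpl12 at -0.101 and Mrps18c at -0.102 for averaged genotype. Leaving out each library in turn gave 0 to 1 calls for genotype at 4 weeks (18 to 147 over all genes) and 22 to 31 for sex (2869 to 4216). At 21 weeks it gave 0 to 3 for genotype on normal diet (127 to 888) and 0 to 4 for diet in control (21 to 358). For averaged genotype it gave 1 to 3 (167 to 713) and for averaged diet 3 to 7 (234 to 581). In these fits Mrps18a ranged from -0.223 to 0.17 for diet in control and -0.153 to 0.236 for genotype on high fat diet, Mrps18c from -0.453 to 0.0311 and -0.0208 to 0.273 for genotype on high fat diet and averaged, Mrpl12 from -0.117 to 0.0665, -0.00704 to 0.135 and -0.0226 to 0.0692 for genotype on normal diet, on high fat diet and averaged, and Mrps12 from -0.265 to 0.0704 for diet in control. The causes were not tested. Depth limits the low members most.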
